A study of Drosophila melanogaster with 12 samples.

Results

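The transcripts described here code for 7 acyl-CoA synthetases of Drosophila, enzymes that activate fatty acids: CG6178, pdgy, bgm, Acsf2, CG4830, CG9993 and hll. Each was matched by its gene symbol to 1 probe set of the array. The probe sets of 6 of these genes are in the table that the authors normalized with dChip, which has 9669 probe sets and 7443 genes named by a single symbol. The probe set of hll was read from the series matrix, which has 18769 probe sets and 11982 such genes once array controls are left out. The other genes of the pathway that are counted below were listed by name. Both these lists and the members were chosen with earlier results of these data known, so their counts are not independent of the data.

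RNA of whole larvae was hybridised to 12 one-colour Affymetrix arrays, 3 for each of 4 groups, to find the transcripts that depend on the nuclear receptor HNF4 with and without food. HNF4 null larvae carried the deletion alleles HNF4(del33) and HNF4(del17) in trans, a genotype of the whole animal and not of 1 tissue. Control larvae carried precise excisions of the P-elements EP2449 and KG08976 in trans. HNF4 null starved and control starved larvae were kept without food for 24 h from late L2 on moist paper, and HNF4 null fed and control fed larvae stayed on food. Animals were mid-L3 larvae that looked healthy, and the starved groups are those that survived the 24 h, so larvae that died or did not moult are not represented. The samples were prepared in triplicate, and nothing states that replicates came from separate cultures, so p-values measure the spread between these samples. In whole larvae, fewer cells of a type and less RNA per cell cannot be told apart.

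A fatty acid cannot be oxidised, elongated or stored in a lipid until it has been joined to coenzyme A. Acyl-CoA synthetases carry out this step with ATP, and members of the family differ in the chain length they prefer and in where in the cell they work. The acyl-CoA they make can enter mitochondria through the carnitine shuttle, be shortened in peroxisomes, or be built into triglyceride and membrane lipids. In insects the fat body, the midgut and the oenocytes are the main sites of this traffic.

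In the dChip table array medians ran over 483.3 to 551.8 and replicate arrays had pairwise r of 0.968 to 0.994 on the log2 scale. Control fed replicate 3 had the lowest mean correlation with its group, r = 0.971. Hnf4 itself read 2784, 2938 and 3190 in HNF4 null starved arrays against 1736, 1818 and 1937 in control starved arrays, and 1482, 1540 and 1641 in HNF4 null fed arrays against 1207, 1228 and 1327 in control fed arrays. The signal of the mutated gene was thus higher in HNF4 null arrays, without overlap on either diet. By limma, described below, the difference passed in starved larvae (log2 0.7 ± 0.08 SE, adjusted p = 0.000396). In fed larvae it did not pass (log2 0.31 ± 0.08, adjusted p = 0.133). Since it is not known here whether the probes fall in the deleted part, the Hnf4 signal cannot serve as a check of genotype. Of the fat body markers, apolpp read 13672 to 23810 over all arrays. Lsp2, a storage protein of the larval fat body, read 287 to 374 in the starved arrays of both genotypes, under the array medians. In fed arrays it read 13857, 328 and 780 in HNF4 null larvae against 18373, 16372 and 290 in control larvae, so replicates of both fed groups were split and control fed replicate 3 was low.

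All intensities below are on a linear scale with arbitrary units, and probe sets of different genes are not set against each other as levels. Differences are log2 of the intensity after values were raised to a floor of 16, from limma fitted on all probe sets of the table, with the standard error (SE) and the p adjusted by the Benjamini-Hochberg method over the table. A difference passed the test at an adjusted p under 0.05.

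**Figure D1:**
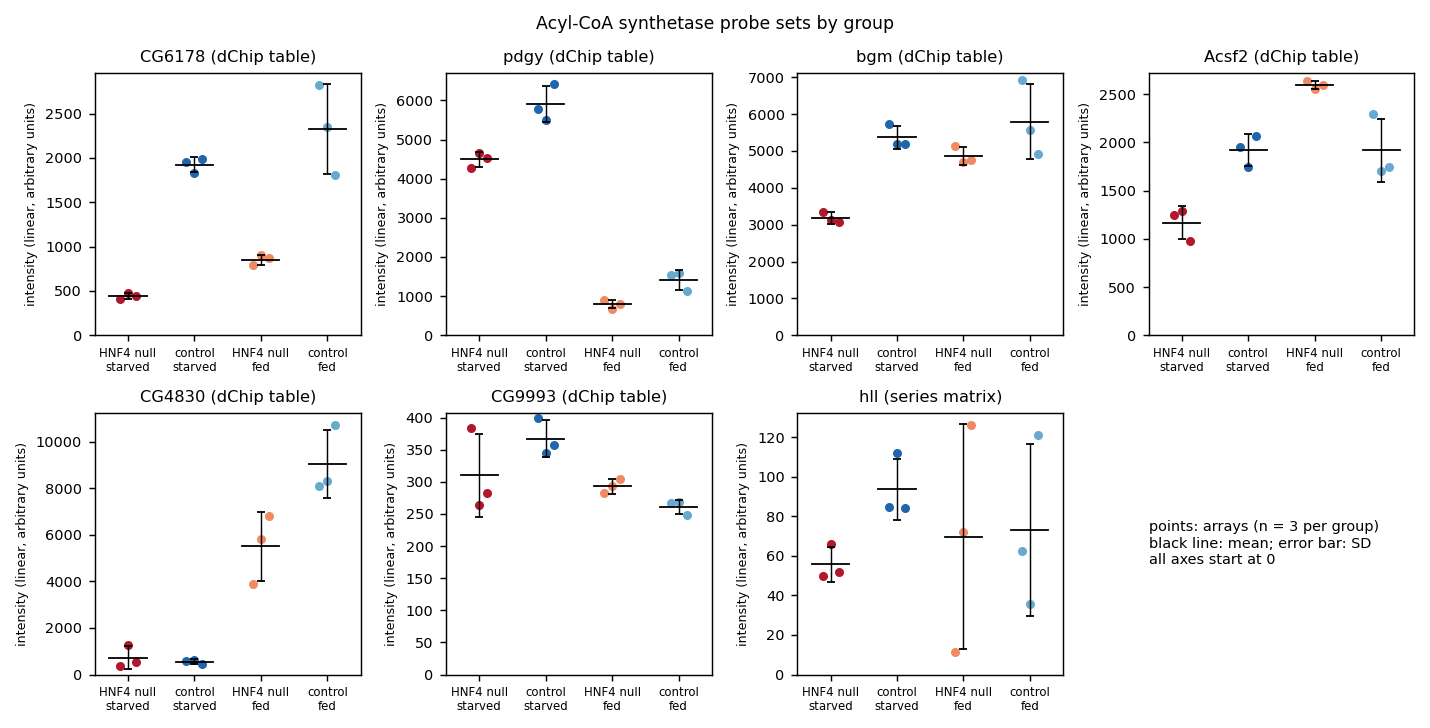
Intensity (linear, arbitrary units, axes from 0) of the 7 acyl-CoA synthetase probe sets in each array; points are arrays, the black line is the mean and the bar the SD of 3 arrays. CG6178 lay at 409 to 901 in the 6 HNF4 null arrays and at 1808 to 2819 in the 6 control arrays, while pdgy and CG4830 parted by diet.

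The members did not share a pattern. CG6178 was low wherever HNF4 was missing. The transcript of pdgy was several times higher in starved than in fed larvae of both genotypes and was lower in HNF4 null larvae on food. Both bgm and Acsf2 were lower in HNF4 null larvae after starvation, and neither passed between genotypes on food. Of these, Acsf2 passed the test of the difference between genotypes in the response to starvation, and bgm did not. CG4830 was much lower in starved larvae of both genotypes. CG9993 and hll were dim.

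CG6178 (chromosome arm 3R) is a homologue of firefly luciferase that works as a fatty acyl-CoA synthetase. Its intensity was 409, 481 and 447 in HNF4 null starved arrays against 1956, 1828 and 1988 in control starved arrays. In fed larvae it was 790, 901 and 868 in HNF4 null arrays against 2819, 2353 and 1808 in control arrays. No HNF4 null array reached the lowest control array on either diet. CG6178 was 4.32-fold lower in HNF4 null larvae after starvation (log2 -2.11 ± 0.14 SE, n = 3 per group, limma adjusted p = 3.11e-06) and 2.69-fold lower on food (log2 -1.43 ± 0.14, adjusted p = 0.000278). By p it stood 23rd of 9669 probe sets in the starved comparison and 16th in the fed one. Without control fed replicate 3, the lowest of its group, the fed difference was log2 -1.60.

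From low to high the group means of CG6178 were HNF4 null starved (446 ± 35.8, SD, n = 3), HNF4 null fed (853 ± 56.9), control starved (1924 ± 84.4) and control fed (2327 ± 506). The control groups overlapped, and the other neighbours in this order did not. Starvation lowered CG6178 by 1.91-fold in HNF4 null larvae (log2 -0.94 ± 0.14, adjusted p = 9.58e-05). In control larvae the starved minus fed difference was log2 -0.25 (95% CI -0.55 to 0.05, adjusted p = 0.122), and it passed the test without control fed replicate 3 (log2 -0.42, adjusted p = 0.00522), with median centring (log2 -0.34, adjusted p = 0.0412) and with array weights (log2 -0.29, adjusted p = 0.0338). The difference between the genotypes in the response to starvation was log2 -0.69 ± 0.19 (adjusted p = 0.0908), which did not pass. It did pass without control fed replicate 1 (log2 -0.84, adjusted p = 0.0413) and with array weights (log2 -0.70, adjusted p = 0.00964).

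The genes whose log2 values over the 12 arrays were most like those of CG6178 belong to mitochondrial β-oxidation. They were Mtpbeta (Pearson r = 0.985), a subunit of the trifunctional protein, and the acyl-CoA dehydrogenases Arc42 (r = 0.984) and Acadvl (r = 0.983). Mtpbeta read 1165, 1419 and 1247 in HNF4 null starved arrays against 4999, 4454 and 4680 in control starved arrays, and 2030, 2193 and 1825 in HNF4 null fed arrays against 4965, 5213 and 4728 in control fed arrays. After the mean of each diet was taken off, the most alike were Dhrs4 (r = 0.997) and Hsdl2 (r = 0.992), both named for short-chain dehydrogenases, and CG9577 (r = 0.992). These correlations describe 12 points from 4 groups, and both genes of a pair were read on the same arrays.

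**Figure D2:**
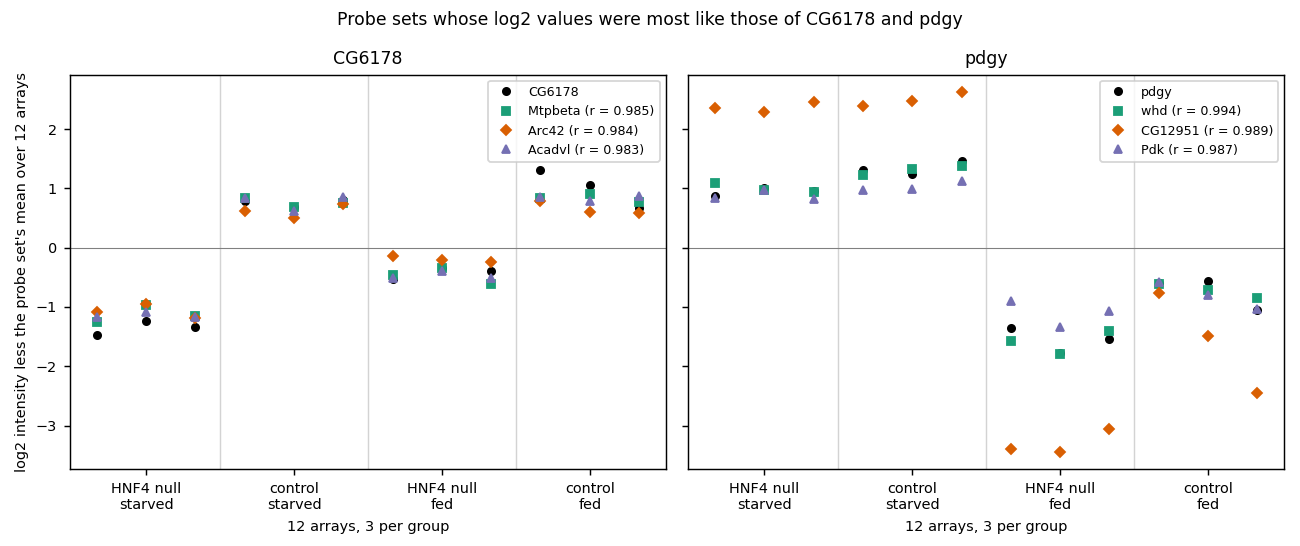
Log2 intensity less each probe set's own mean over the 12 arrays, for CG6178 (left) and pdgy (right) with the 3 probe sets most like each by Pearson r; arrays stand in 4 groups of 3. Values of CG6178, Mtpbeta, Arc42 and Acadvl are above 0 in every control array and below 0 in every HNF4 null array, and those of pdgy, whd, CG12951 and Pdk are above 0 in every starved array and below 0 in every fed array.

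The gene pdgy (pudgy, CG9009, X chromosome) codes for an acyl-CoA synthetase that promotes fatty acid oxidation and is held down by insulin signalling through FOXO. It read 4273, 4668 and 4536 in HNF4 null starved arrays against 910, 682 and 804 in HNF4 null fed arrays. In control larvae it read 5793, 5502 and 6409 when starved against 1538, 1584 and 1125 when fed. Every starved array was far above every fed array. The rise with starvation was 5.66-fold in HNF4 null larvae (log2 2.5 ± 0.14, adjusted p = 9.18e-08) and 4.21-fold in control larvae (log2 2.07 ± 0.14, adjusted p = 7.11e-07). The difference between these responses was log2 0.43 ± 0.20 (adjusted p = 0.291), which did not pass the test.

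Between genotypes pdgy was lower in HNF4 null larvae on food by 1.76-fold (log2 -0.82 ± 0.14, adjusted p = 0.0166). The HNF4 null fed and control fed arrays given above did not overlap. This call did not hold in every setting. Its adjusted p was 0.192 in the series matrix, 0.173 when the fed arrays were fitted alone, and 0.0721, 0.0811, 0.0682 and 0.0726 without control fed replicate 1 or 2 or HNF4 null fed replicate 2 or 3. In starved larvae the HNF4 null arrays also lay under all control arrays, with a log2 difference of -0.39 (95% CI -0.70 to -0.09, adjusted p = 0.125), which passed without control fed replicate 3 (adjusted p = 0.0427), with array weights (0.00417) and when the starved arrays were fitted alone (0.0299).

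Over the 12 arrays the values of pdgy were most like those of whd (r = 0.994), the carnitine palmitoyltransferase that hands acyl groups to carnitine at the mitochondrion. CG12951 (r = 0.989) and Pdk (r = 0.987), a kinase that switches off pyruvate dehydrogenase, came next. The values of whd were 3530, 3266 and 3187 in HNF4 null starved arrays against 558, 481 and 625 in HNF4 null fed arrays, and 3884, 4181 and 4312 in control starved arrays against 1089, 1017 and 920 in control fed arrays. The genotype differences of whd were log2 -0.31 ± 0.10 in starved larvae (adjusted p = 0.103) and -0.87 ± 0.10 in fed larvae (adjusted p = 0.0015). With the mean of each diet taken off, LManIII (r = 0.977), CG17477 (r = 0.968) and CG31269 (r = 0.963) were most like pdgy.

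The gene bgm (bubblegum, CG4501, arm 2L) codes for a very long chain acyl-CoA synthetase, and flies that lack it accumulate very long chain fatty acids and show neurodegeneration. It read 3347, 3133 and 3059 in HNF4 null starved arrays against 5722, 5201 and 5178 in control starved arrays. On food the values were 5137, 4705 and 4748 in HNF4 null arrays against 6914, 5556 and 4919 in control arrays. The starved groups did not overlap, and the fed groups did. Starved HNF4 null larvae had 1.69-fold less bgm (log2 -0.75 ± 0.11, adjusted p = 0.00224), and the fed difference was log2 -0.24 (95% CI -0.49 to 0.01, adjusted p = 0.463).

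Starvation lowered bgm in HNF4 null larvae by 1.53-fold (log2 -0.61 ± 0.11, adjusted p = 0.000467). In control larvae the difference was log2 -0.10 (95% CI -0.34 to 0.15, adjusted p = 0.449), and without control fed replicate 1 it was 0.04. The responses of the genotypes differed by log2 -0.51 ± 0.16 (adjusted p = 0.115). That test was passed without control fed replicate 1 (log2 -0.65, adjusted p = 0.0332) and with array weights (log2 -0.45, adjusted p = 0.0388). The values of bgm were most like those of l(2)k09913 (r = 0.949), CG3663 (r = 0.945) and the glycerol-3-phosphate acyltransferase gene Gpat4 (r = 0.942), and with the mean of each diet taken off like those of Mfe2 (r = 0.961), the multifunctional enzyme of peroxisomal β-oxidation.

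Acsf2 (CG12512, arm 2L) is named for the mammalian acyl-CoA synthetase family member that acts on medium chain fatty acids in mitochondria. It read 1245, 1286 and 977 in HNF4 null starved arrays against 1950, 1743 and 2070 in control starved arrays. In fed larvae the direction was the other way, with 2635, 2556 and 2597 in HNF4 null arrays against 2298, 1709 and 1745 in control arrays. Neither pair of groups overlapped. The starved difference passed the test (1.65-fold lower in HNF4 null larvae, log2 -0.72 ± 0.13, adjusted p = 0.00742), and the fed one did not (log2 0.45 ± 0.13, 95% CI 0.16 to 0.74, adjusted p = 0.193).

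Acsf2 thus fell by 2.24-fold with starvation in HNF4 null larvae (log2 -1.16 ± 0.13, adjusted p = 1.48e-05), against a difference of log2 0.01 in control larvae (95% CI -0.28 to 0.30, adjusted p = 0.938). The control means were 1921 ± 166 starved and 1918 ± 330 fed (SD, n = 3). The responses to starvation differed between genotypes by log2 -1.17 ± 0.19 (adjusted p = 0.0117). Acsf2 was the 1 member of the 6 in the dChip table to pass this test, where 0.765% of all probe sets passed with a more negative response in HNF4 null larvae, 1.82% with a more positive one and 2.59% in either direction. Of 10 measured genes of the carnitine shuttle and mitochondrial β-oxidation, 7 passed it too with a more negative response, and 0 with a more positive one. Of 9 further synthetases and fatty acid transport proteins, 7 peroxisomal genes, 6 binding proteins and 5 thioesterases, 0 passed in limma. At an unadjusted p under 0.05 there were 3, 4, 2 and 0 of these. In the series matrix the difference was log2 -1.45 with an adjusted p of 0.0821, and in the other settings tried its adjusted p was below 0.05. CG18493 (r = 0.967) and CG10081 (r = 0.962) were most like Acsf2 over the 12 arrays, and they were so as well with the mean of each diet taken off (r = 0.963 and 0.957).

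CG4830 (arm 3R) is an acyl-CoA synthetase by sequence. It had the widest range of the 6 members in the dChip table, 29.7-fold from its lowest to its highest array. Its intensity was 362, 1278 and 539 in HNF4 null starved arrays against 3889, 5820 and 6816 in HNF4 null fed arrays. In control larvae it was 561, 646 and 438 when starved against 8119, 8311 and 10733 when fed. All starved arrays lay under all fed arrays, and HNF4 null starved replicate 2 stood above the other starved arrays. CG4830 was 8.52-fold lower in starved than in fed HNF4 null larvae (log2 -3.09 ± 0.38, adjusted p = 2.54e-05, and log2 -3.60 without that array). In controls it was 16.6-fold lower (log2 -4.05 ± 0.38, adjusted p = 5.83e-06).

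The difference between these responses of CG4830 was log2 0.96 ± 0.54 (95% CI -0.22 to 2.14, adjusted p = 0.394). The genotypes differed by log2 0.22 in starved larvae (95% CI -0.62 to 1.05, adjusted p = 0.843), which became -0.30 without HNF4 null starved replicate 2. In fed larvae all HNF4 null arrays were below all control arrays, but with a standard error of 0.38 the log2 difference of -0.74 did not pass (95% CI -1.58 to 0.09, adjusted p = 0.512). The probe sets most like CG4830 were those of CG13690 (r = 0.990), CG17134 (r = 0.984) and CG8778 (r = 0.984).

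CG9993 (arm 2R), also a synthetase by sequence, was dim, under the median of the dChip table in all 12 arrays. It read 384, 264 and 282 in HNF4 null starved arrays against 282, 293 and 305 in HNF4 null fed arrays, and these groups overlapped. In control larvae it read 400, 344 and 357 when starved against 267, 268 and 248 when fed, without overlap. The rise in starved controls passed the test (1.40-fold, log2 0.49 ± 0.12, adjusted p = 0.00495). In HNF4 null larvae the difference was log2 0.06 (95% CI -0.21 to 0.34, adjusted p = 0.661). The responses differed by log2 -0.43 ± 0.18 (adjusted p = 0.241), so that a difference between genotypes was not shown. The genotype differences were log2 -0.26 in starved larvae (95% CI -0.53 to 0.01) and 0.17 in fed larvae (95% CI -0.11 to 0.44), and neither passed (adjusted p = 0.277 and 0.665). Without HNF4 null starved replicate 1, the highest array of that group, the starved difference did pass (log2 -0.42, adjusted p = 0.0276). The secreted protein gene shf was most like CG9993 (r = 0.906).

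The gene hll (heimdall, CG4500), a close relative of bgm, lies near it on arm 2L with 4 genes between them, 1 of them protein-coding (NimC3). It is not among the probe sets with Present calls that make up the dChip table. In the series matrix it read 49.7, 66.0 and 51.8 in HNF4 null starved arrays against 84.9, 112 and 84.3 in control starved arrays, and 11.6, 71.9 and 126 in HNF4 null fed arrays against 62.7, 35.5 and 121 in control fed arrays. It was under the array median in 10 of 12 arrays. The starved groups did not overlap, but no test of hll passed in any comparison. The series matrix had 2% of its probe sets passing between genotypes in starved and 0.336% in fed larvae, 31.6% between diets in HNF4 null and 28.3% in control larvae, and 0.139% for the difference between the responses. The genotype difference was log2 -0.74 in starved larvae (95% CI -2.32 to 0.83, adjusted p = 0.769) and -0.30 in fed larvae (95% CI -1.88 to 1.28, adjusted p = 0.98). These intervals hold the values measured for bgm, so whether the neighbours differ in their response could not be seen.

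**Figure D3:**
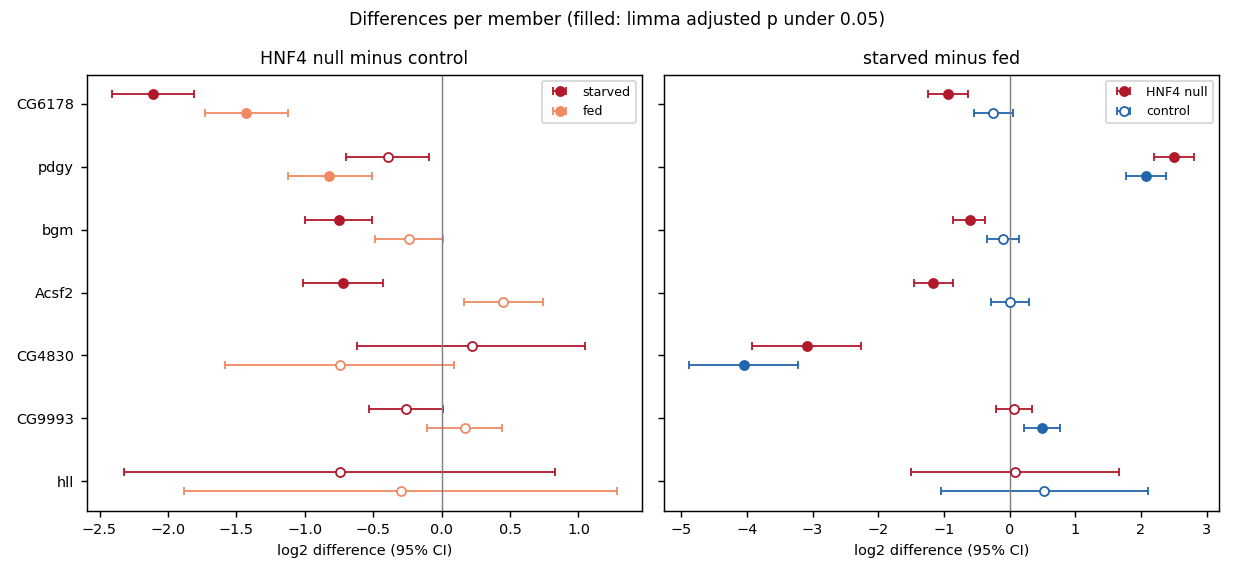
Log2 differences with 95% confidence intervals for each member, HNF4 null minus control (left; starved and fed) and starved minus fed (right; HNF4 null and control); filled points have a limma adjusted p under 0.05. CG6178 has filled points on both diets at left (-2.11 and -1.43), and Acsf2 lies on opposite sides of 0 in starved (-0.72) and fed (0.45) larvae.

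Counted over the 6 members in the dChip table, 3 fell and 0 rose in HNF4 null starved larvae against control starved larvae (CG6178, bgm and Acsf2), where 3.7% of all probe sets passed as lower, 3.91% as higher and 7.61% in either direction. The members' median log2 difference was -0.56, against -0.01 over all probe sets. In fed larvae 2 fell and 0 rose (CG6178 and pdgy), where 0.869% of all probe sets passed as lower, 0.186% as higher and 1.05% in either direction, and the median was -0.49 against -0.01. The fed count was 1 in the series matrix, with CG6178 alone.

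With starvation 5 of the 6 changed in HNF4 null larvae, 1 higher (pdgy) and 4 lower (CG6178, bgm, Acsf2 and CG4830), where 37.5% of all probe sets passed as higher, 38.3% as lower and 75.7% in either direction. In control larvae 3 of the 6 changed, 2 higher (pdgy and CG9993) and 1 lower (CG4830), where 36.1% passed as higher, 32.1% as lower and 68.2% in either direction. With so many probe sets passing, these counts single out no property of the members. The members' median was log2 -0.78 in HNF4 null larvae and -0.04 in control larvae, against -0.04 and 0.03 over all probe sets. Median centring of the arrays moved the median of all probe sets in HNF4 null larvae by -0.13, and the starvation difference of CG9993 there was -0.07 with it and 0.06 without it. With it the calls over all probe sets were 3084 higher and 4324 lower in HNF4 null larvae, against 3622 higher and 3700 lower without it. In control larvae they were 2923 higher and 3644 lower, against 3486 higher and 3108 lower, so which direction was the more frequent changed there with the scaling, as it did with quantile normalization (3176 higher and 3399 lower). The series matrix gave 3629 higher and 2293 lower in HNF4 null larvae and 3434 higher and 1881 lower in control larvae. The difference between the responses was called as 176 higher and 74 lower, and with median centring as 131 higher and 88 lower.

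Of 9 further synthetases and fatty acid transport proteins in the dChip table, 2 fell and 0 rose in starved HNF4 null larvae. Over all probe sets 3.7% passed there as lower, 3.91% as higher and 7.61% in either direction. In fed larvae 0 of the 9 passed in limma, with 2 at an unadjusted p under 0.05, where 1.05% of all probe sets passed. Acsl, a long chain acyl-CoA synthetase, read 1394, 1640 and 1255 in HNF4 null starved arrays against 2233, 2338 and 2117 in control starved arrays (log2 -0.65 ± 0.12, adjusted p = 0.00735). AcCoAS, which makes acetyl-CoA from acetate, read 1347, 1292 and 1201 in HNF4 null starved arrays against 1840, 1979 and 1888 in control starved arrays (log2 -0.57 ± 0.14, adjusted p = 0.032). With starvation, 2 of the 9 rose and 6 fell in HNF4 null larvae, and 3 rose and 4 fell in control larvae. Over all probe sets 75.7% passed in HNF4 null larvae (37.5% higher, 38.3% lower) and 68.2% in control larvae (36.1% higher, 32.1% lower). With so many passing, these counts single out no property of the family. AcCoAS was 7.22-fold lower in starved HNF4 null larvae and 4.24-fold lower in starved controls.

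The proteins that act on acyl-CoA after the synthetases gave the following counts, shown in the plot of genes that use acyl-CoA. Of 10 measured genes of the carnitine shuttle and mitochondrial β-oxidation, 9 fell and 0 rose in HNF4 null larvae on each diet, with a median log2 difference of -1.90 in starved and -1.19 in fed larvae. Of 7 genes of peroxisomal β-oxidation 6 fell in starved and 4 in fed HNF4 null larvae, and 0 rose. Beside both lists, 3.7% of all probe sets passed as lower in starved and 0.869% in fed larvae, and 3.91% and 0.186% as higher. Among the peroxisomal genes the carnitine octanoyltransferase gene CROT had the most negative genotype difference in starved larvae (log2 -2.17 ± 0.23, adjusted p = 0.000208). The acetyltransferase gene CRAT fell in starved HNF4 null larvae too (log2 -1.05 ± 0.14, adjusted p = 0.00107). The mitochondrial genes that fell most in starved HNF4 null larvae were yip2 (log2 -3.34), CG4598 (-2.6) and scu (-2.45). The CG6178 difference in starved larvae was smaller than these. Its size lies between those of colt (log2 -2.19), the carnitine carrier, and Acadvl (-1.91).

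Acyl-CoA binding proteins carry acyl-CoA in the cytosol, and thioesterases undo the work of the synthetases. Of 6 binding proteins 2 fell in starved HNF4 null larvae, Acbp5 (log2 -1.71 ± 0.38, adjusted p = 0.02) and Acbp2 (log2 -0.98 ± 0.23, adjusted p = 0.0251), where 3.7% of all probe sets passed as lower. In fed larvae 0 passed in limma, also 0 at an unadjusted p under 0.05, where 1.05% of all probe sets passed in either direction. The values of Acbp5 were 1815, 7069 and 2512 in HNF4 null starved arrays against 10992, 8933 and 11561 in control starved arrays, so that replicate 2 of the HNF4 null group stood apart as it did for CG4830. Of 5 thioesterases 0 passed between genotypes on either diet in limma, also 0 at an unadjusted p under 0.05, with medians of log2 -0.13 in starved and -0.01 in fed larvae. Over all probe sets 7.61% passed in starved and 1.05% in fed larvae. With starvation 4 of the 5 fell in both genotypes. Over all probe sets 38.3% passed as lower and 75.7% in either direction in HNF4 null larvae, and 32.1% and 68.2% in control larvae. CG1774 was lower by 6.06-fold in HNF4 null and by 3.90-fold in control larvae.

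**Figure D4:**
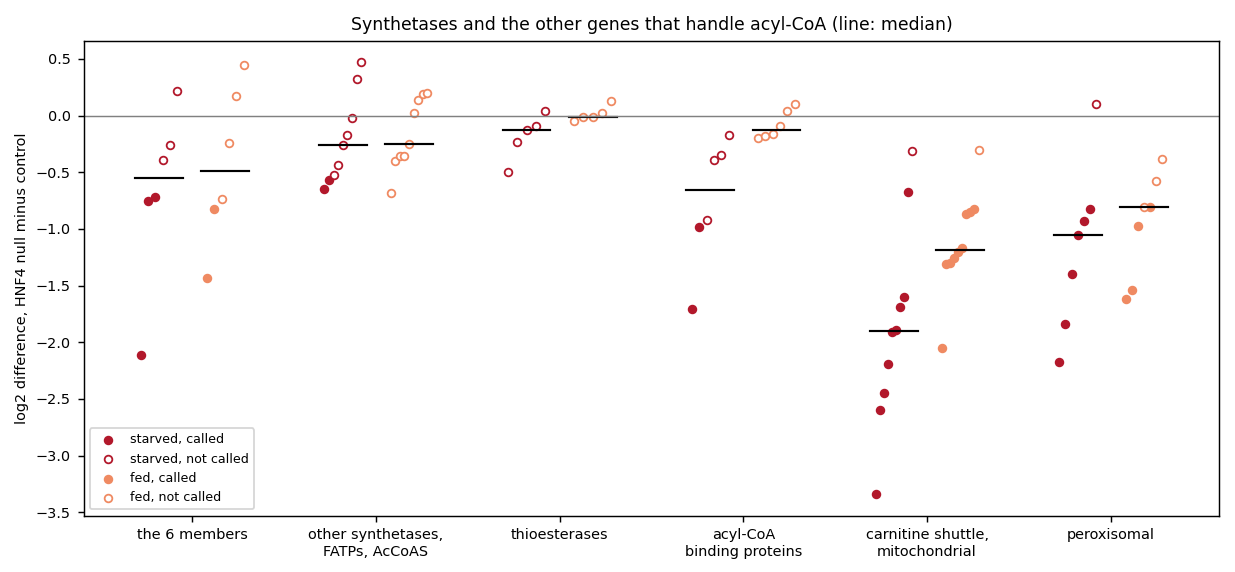
Log2 difference of HNF4 null minus control for the 6 members in the dChip table and for 5 lists of genes that make, use, bind or cleave acyl-CoA, in starved and fed larvae; filled points have a limma adjusted p under 0.05 and black lines are medians. The medians of the mitochondrial list (-1.90 starved, -1.19 fed) are lower than those of the members (-0.56 and -0.49) and of the thioesterases (-0.13 and -0.01).

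No marker of fat body (3 measured), oenocytes (3), midgut (5), muscle (3), neurons (1) or male germline (5) passed between genotypes on either diet in limma. Over all probe sets 7.61% passed in starved and 1.05% in fed larvae, so a lack of calls among so few markers does not show unchanged tissues. Of all 9669 probe sets, 1955 in starved and 1071 in fed larvae had an unadjusted p under 0.05. At an unadjusted p under 0.05 there was at most 1 gene per tissue and diet, except for 3 male germline genes in starved larvae. Of 3 measured Malpighian tubule genes 2 were lower in HNF4 null starved larvae, where 3.7% of all probe sets passed as lower. They were Irk2 (log2 -0.57 ± 0.12, adjusted p = 0.0176) and NaPi-T (log2 -0.52 ± 0.082, adjusted p = 0.00329). Irk3, the other gene measured, read 562, 427 and 531 in HNF4 null starved arrays against 479, 428 and 493 in control starved arrays. It overlapped and did not pass (log2 0.11 ± 0.12, adjusted p = 0.701). The sum of the 3 genes was 2450 to 3170 in HNF4 null starved arrays and 3642 to 4479 in control starved arrays. Most of this sum was Irk2, with means of 2239 and 3334, so it does not show a fall of all 3 genes. Irk2 and NaPi-T fell together with CG6178, bgm and Acsf2, and their part in those differences was not tested. The sum of the male germline genes was 630 to 1109 in HNF4 null starved arrays against 1205 to 1367 in control starved arrays, without overlap. The midgut gene alphaTry read 12168, 10817 and 12347 in HNF4 null starved arrays against 8229, 9721 and 7224 in control starved arrays. In fed arrays it read 3594, 3705 and 4996 against 3304, 2213 and 2163. Neither pair overlapped or passed (log2 0.5 and 0.69, adjusted p = 0.133 and 0.136), and the other midgut genes overlapped. The muscle gene Mlc2 was lower in HNF4 null starved arrays without overlap (log2 -0.42, adjusted p = 0.0532), unlike Tm2 and up. The oenocyte genes went different ways. FASN3 read 333, 452 and 344 in HNF4 null starved arrays against 513, 506 and 626 in control starved arrays, without overlap (log2 -0.55 ± 0.19, adjusted p = 0.107). Cyp4g1 was higher in HNF4 null fed arrays, at 4729, 4240 and 3853 against 3383, 3308 and 3565, without overlap (log2 0.32 ± 0.099, adjusted p = 0.225). Of the fat body genes, apolpp read 13672, 18730 and 13826 in HNF4 null starved arrays against 17327, 16363 and 17893 in control starved arrays, and 22565, 21526 and 20900 in HNF4 null fed arrays against 23810, 22949 and 20997 in control fed arrays. Lsd-1 read 3484, 3744 and 3511 in HNF4 null fed arrays against 4404, 4621 and 4474 in control fed arrays, without overlap (log2 -0.33 ± 0.16, adjusted p = 0.501). The sum of the fat body genes was 14532 to 20076 in HNF4 null starved and 17743 to 19068 in control starved arrays, and 25191 to 39906 in HNF4 null fed and 25761 to 46588 in control fed arrays, where the spread within the fed groups was that of Lsp2. The part of Lsp2 and of what sets control fed replicate 3 apart in the members' fed values was not tested. Without that array the fed genotype differences were log2 -1.60 for CG6178 (adjusted p = 2.84e-05) and -0.98 for pdgy (adjusted p = 0.00149), and those of bgm, Acsf2, CG4830 and CG9993 did not pass. Between diets Lsd-1, a lipid droplet protein of the fat body, was 5.15-fold lower in starved HNF4 null and 4.79-fold lower in starved control larvae, and its part in the fall of CG4830 was not tested.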

How the data were processed

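The authors deposited 2 tables of linear intensity. They normalized the first with dChip and kept Present calls, per the file headers, and no version, model, baseline or call rule is given in the sources used here. How the series matrix signal was made is likewise not given. Columns were matched to samples by name, and 12 of 12 correlated best with the same sample in the other table. Platform annotation gave gene names, brought up to date through Entrez numbers and RefSeq (7970 probe sets of the dChip table with 1 symbol, 248 with several, 1451 with none).

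Values were raised to 16, taken to log2 and fitted with limma 3.58.1 in R 4.3.3 (1 mean per group, all 12 arrays, eBayes, Benjamini-Hochberg within each of 5 contrasts, threshold 0.05), with no further normalization or filter. The code was tested on simulated data. Precision is limited by the number of arrays. The members and lists were chosen with earlier results of these data known. All members are named, and from the lists up to 6 genes past the test per comparison, and the 3 genes most like each member. For a listed gene with several probe sets the brightest on average was used. Markers are named as such, and colt, CROT, CRAT and Acadvl were picked after their values were seen. Alternatives were the series matrix, a floor of 1 or of 64, quantile or median scaling, leaving out the dimmest 40% of probe sets, a replicate block, eBayes with trend and robust, array weights, fitting only the groups compared, a minimum change of 1.5-fold, and leaving out each array.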

Additional observations from a re-analysis of the deposited data

Results flagged for a closer look

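The response of Acsf2 to starvation differed between genotypes by a direct test of that difference (log2 -1.17 ± 0.19 SE, HNF4 null minus control, limma adjusted p = 0.0117). The starved minus fed difference was -1.16 in HNF4 null and 0.01 in control larvae on the log2 scale. Such a result was not particular to Acsf2, as 7 of 10 measured mitochondrial genes passed this test with a more negative response too. The adjusted p lay between 0.00238 and 0.0821 over the alternatives, with the highest in the series matrix. No group had more than 3 arrays, so single arrays were not tested as outliers.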

How the results depend on the processing

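Of the 753 recomputed member differences, 714 kept their direction and their side of the threshold. CG6178 kept both genotype calls in all 22 alternatives, at log2 -2.25 to -2.05 in starved and -1.64 to -1.28 in fed larvae, as did bgm and Acsf2 in starved larvae. The cause of the following changes was not tested. The 2 members called in fed larvae became 1 with the compared groups alone and in the series matrix, and 1 to 2 without single arrays. The 1 member called for the difference of responses became 3 with array weights, 0 in the series matrix (limma, 2 of the 6 at an unadjusted p under 0.05) and 1 to 3 without single arrays. Over all probe sets, the fed genotype count of 102 was 193 with array weights, 41 with the compared groups alone, 63 in the series matrix and 47 to 272 without single arrays. The starved genotype count of 736 was 2439, 376 (series matrix), 357 (minimum change) and 329 to 940. The starvation counts of 7322 in HNF4 null and 6594 in control larvae were 4483 and 4160 without the dimmest 40% of probe sets, where CG9993 was left out and fewer were tested, and 4222 and 3364 with the minimum change. The count of 250 for the difference of responses was 1208 with array weights, 26 in the series matrix and 81 to 549 without single arrays.

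Direction changed only in differences that did not pass the test. For hll the genotype difference in fed larvae was 0.07 with a floor of 64, 0.47 with array weights and -0.93 to 0.56 without single arrays. Its starvation difference in HNF4 null larvae, 0.08, was -0.37, -0.09, -0.17 and -0.54 with the floor of 64, quantile normalization, median centring and array weights, and -0.78 to 0.71 without single arrays. Its difference of responses was -1.30 to 0.18 without single arrays. Acsf2 in controls was -0.03 with quantile normalization, -0.08 with median centring, and -0.06 to 0.15 without single arrays. Without single arrays the starvation difference of bgm in controls was -0.21 to 0.04, the genotype difference of CG4830 in starved larvae -0.30 to 0.62, and the starvation difference of CG9993 in HNF4 null larvae -0.10 to 0.17. The CG9993 difference was -0.07 with median centring.

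Same-numbered arrays of different groups deviated together at r = -0.396 to 0.283, over 0.1 in 5 of 18 pairs, so the arrays were not treated as paired. Column names of the dChip table carry letters that run in order through the replicate numbers; their meaning is not stated, and a shared processing step per number was not tested beyond this check and the block. With the replicate number as a block the members called were the same in number in all 5 comparisons, and 132 probe sets were called for the difference of responses.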

Other observations

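A further 7 genes of the acyl-CoA synthetase list have probe sets in the series matrix and not in the dChip table: CG6432, Acsf3, CG8834, CG18586, CG5568, Acsx3 and Acsx1L. For 5 of them all 12 values lay under the array median. In limma fitted on the series matrix 0 of the 7 passed between genotypes on either diet (1 at an unadjusted p under 0.05 on each), where 2% of probe sets passed in starved and 0.336% in fed larvae. With starvation 1 of the 7 passed in HNF4 null and 0 in control larvae, where 31.6% and 28.3% of probe sets passed. The 1 was Acsf3, named for the mammalian malonyl-CoA synthetase and under the array median in 11 of 12 arrays. It rose in HNF4 null larvae, at 90.8, 52.5 and 73.6 starved against 27.4, 37.3 and 39.5 fed (log2 1.04 ± 0.27, adjusted p = 0.0154). In control larvae it read 113.7, 81.3 and 83.1 starved against 58.8, 46.3 and 80.2 fed (log2 0.60 ± 0.27, adjusted p = 0.134), and the difference between the responses was 0.43 (adjusted p = 0.797). CG6432 read 42.6, 57.1 and 7.4 in HNF4 null starved arrays against 43.2, 164 and 131.3 in control starved arrays, with a log2 difference of -1.53 ± 0.58 that did not pass (adjusted p = 0.306).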
